A study of Mus musculus with 20 samples.

Results

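The nuclear respiratory chain genes, whose products are made in the cytosol and join the mitochondrial inner membrane complexes, were followed through the transcript levels and the G3BP1 contact readout of mouse embryo sections. They were chosen by symbol alone: Nduf genes of the a, b, c, s and v series, Uqcr genes, Cox4 to Cox8 genes and Atp5 genes, together with Sdha, Sdhb, Sdhc and Sdhd, leaving out symbols that contain -ps. The rule found 89 gene IDs with 88 symbols among the 39604 gene IDs in the expression and editing tables. They were 40 genes of complex I, 4 of complex II, 8 of complex III, 19 of complex IV and 18 of complex V. Complexes were assigned from the symbol alone, pseudogenes included. The complex I counts and sums therefore include Ndufa4, known as a complex IV subunit, and its paralog Ndufa4l2. The 4 tables of each kind were used, and 85 of the 89 IDs were listed in all 4 expression tables. The annotation lists 4 members, Ndufs6b, Cox6c2, Ndufb4c and Ndufa11b, as processed pseudogenes, and the symbol Atp5o stands for 2 overlapping gene IDs on chromosome 16, which may share reads.

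The respiratory chain passes electrons from NADH (complex I) and succinate (complex II) through complex III to complex IV, where oxygen is reduced, and the proton gradient built on the way drives ATP synthase, here called complex V. Most subunits are encoded in the nucleus, while a small set of core subunits is encoded in mitochondrial DNA, so both sets of transcripts have to be supplied in each cell. Several complex IV subunits exist as isoform pairs, with a common form and a partner restricted to tissues such as heart and skeletal muscle or testis. Developing neurons are known to rely more on oxidative metabolism than the progenitors they come from.

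MAPIT-seq marks RNA near a protein in fixed or frozen sections. A primary antibody and a guinea pig anti-rabbit secondary antibody recruit a fusion of the cytidine deaminase rAPOBEC1, protein A/G and the adenosine deaminase hADAR2, so that nearby RNA acquires C-to-T changes from the first enzyme and A-to-G changes from the second. The antibody target was G3BP1, which binds RNA and is known as a core protein of stress granules. All 20 libraries came from wild-type C57BL/6J mice, in 10 groups of 2 libraries. Anti-G3BP1, rabbit IgG and untreated libraries were made from E10.5 fixed embryo and from sections labelled E10.5 fresh-frozen embryo, and anti-G3BP1 and IgG libraries were made from E12.5 brain and E16.5 brain. The fixation label is 0.2% FA for the antibody libraries and None for the untreated libraries, but the untreated libraries of the fixed embryo are also labelled Fixed, so the labels leave unclear whether fixation differs there. Antibody and enzyme differ together between antibody and untreated libraries, with fixation as labelled, and their parts cannot be told apart.

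Sites covered by at least 10 reads in each library of a table were kept, and they had a mean depth of 23.2 to 206 reads per library, the lowest in the first IgG library of E12.5 brain, and the second untreated library of the fixed embryo had 33.9. The labels do not state that replicate libraries come from separate animals, and a p-value here reflects the spread of libraries alone, which may be technical. The sections labelled E10.5 fresh-frozen embryo, here called the libraries labelled fresh-frozen, go against their label. Summed over the antibody libraries, the 10 heart markers stood at 24.7 to 42.6 TPM there, against 4287 to 5658 TPM in the fixed embryo, and the 9 neuron markers stood at 5242 to 6222 TPM there, against 692 to 1211 TPM in the fixed embryo. The liver and yolk sac marker Afp and the trunk marker Hoxb9 were at or near 0 in them. No comparison between stages was drawn from them. Brain libraries matched their label, with neuron markers at 6675 to 6816 TPM in E16.5 brain and 3211 to 3817 TPM in E12.5 brain.

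In TPM, which is scaled per transcript length and to 1000000 per library, respiratory chain transcripts were abundant in every tissue. Over the 4 antibody libraries of each table, the members summed to 25321 ± 715 TPM (SD, n = 4) in the fixed embryo, 13435 ± 372 TPM in the libraries labelled fresh-frozen, 18698 ± 423 TPM in brain at E12.5 and 19280.3 ± 471 TPM at E16.5. These sums made up 2.53%, 1.34%, 1.87% and 1.93% of all TPM. The tables were normalized separately, and in sections fewer cells of a type and less RNA per cell cannot be told apart. In E16.5 brain the median member stood at 159.6 TPM, 63 of 87 listed members averaged 100 TPM or more, and 6 averaged under 10 TPM.

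The 10 members with the highest mean TPM over the tables were Cox6a1, Cox6b1, Cox8a and Cox4i1 of complex IV, Atp5b, Atp5a1, Atp5o (ENSMUSG00000116933) and Atp5d of ATP synthase, and Ndufa2 and Ndufc2 of complex I. They held 34.9% to 39.6% of the summed level of the members in each table. Cox6a1, a small regulatory subunit of complex IV, had the highest level in both brain tables, with 1259, 1398, 1294 and 1468 TPM in E16.5 brain and 1531, 1530.3, 1343 and 1578 TPM in E12.5 brain. Here and below, 4 values of a table are the anti-G3BP1 libraries 1 and 2 followed by the IgG libraries 1 and 2. Cox8a, another small complex IV subunit, led in the fixed embryo, at 1726, 1706, 1573 and 1647 TPM. The 4 subunits of complex II stood lower. Sdha, the flavoprotein that oxidises succinate, averaged 134 ± 5.21 TPM in E16.5 brain and 158 ± 17.2 TPM in E12.5 brain (SD, n = 4 each), and Sdhb, the iron-sulfur subunit, 201 ± 12.2 TPM in E16.5 brain and 205 ± 31.6 TPM in E12.5 brain. Of the membrane anchors, Sdhc averaged 137 ± 10.05 TPM in E16.5 brain and 124 ± 19.5 TPM in E12.5 brain, and Sdhd 212 ± 6.56 TPM in E16.5 brain and 179.9 ± 53.5 TPM in E12.5 brain. Ndufb4 and Atp5l, small subunits of complex I and ATP synthase named after their values were seen, averaged at most 13.6 TPM and 10.7 TPM in any table. How the deposited values treat reads shared with pseudogene copies is not given in the sources used here, so the levels of such genes are uncertain.

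**Figure D1:**
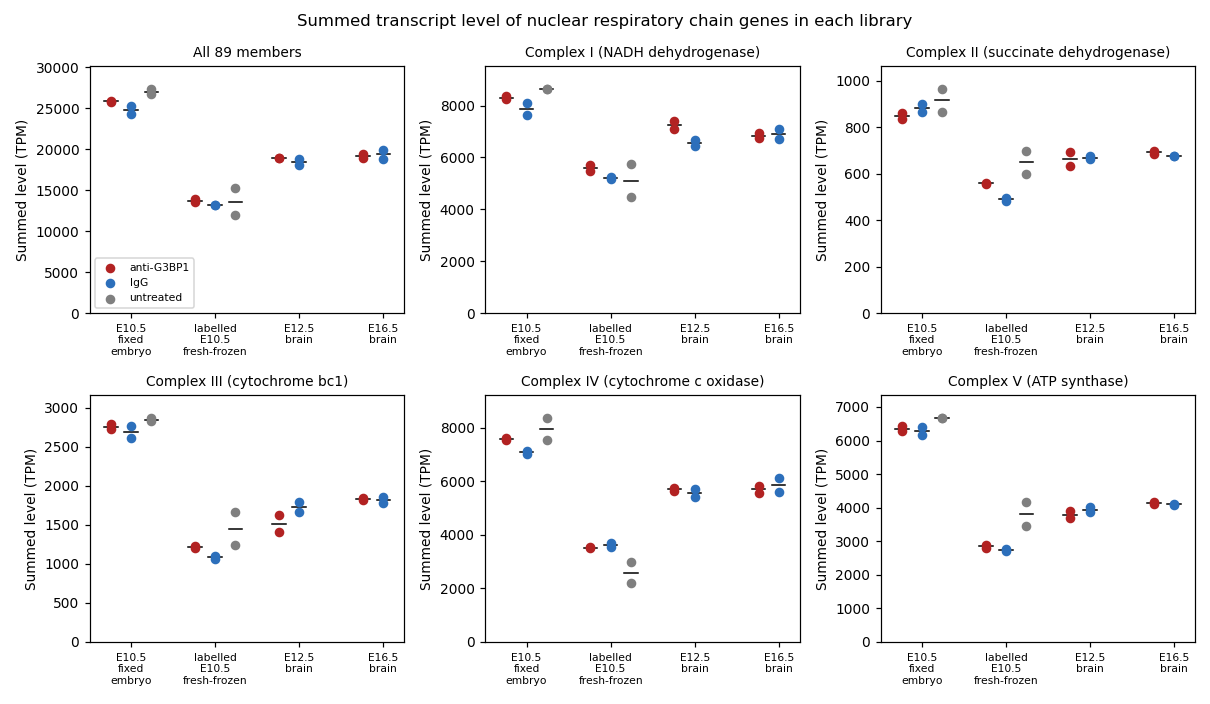
Summed level in TPM of the members of each respiratory complex, with 1 point per library, black bars for the mean of each group of 2 libraries, and colours for anti-G3BP1, IgG and untreated libraries. In the brain tables complex I summed to 6876 ± 175 TPM at E16.5 and 6906 ± 434 TPM at E12.5 (SD, n = 4 each), and every complex summed higher in the fixed embryo than in E12.5 brain.

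By complex, the brain tables were close to each other. Complex III summed to 1828 ± 36.9 TPM in E16.5 brain and 1623 ± 162 TPM in E12.5 brain (SD, n = 4 each), complex IV to 5779.7 ± 271 TPM in E16.5 brain and 5642 ± 147 TPM in E12.5 brain, and complex V to 4112 ± 33.1 TPM in E16.5 brain and 3859 ± 137 TPM in E12.5 brain. Complex II, with 4 members, summed to 684 ± 9.80 TPM in E16.5 brain and 667 ± 26.4 TPM in E12.5 brain. The ranges of the libraries overlapped for complexes I to IV, whereas for complex V every E16.5 library (4094 to 4162 TPM) lay above every E12.5 library (3679 to 4011 TPM). The 4 libraries of the fixed embryo were higher for each complex, for example 6322 ± 124 TPM for complex V and 2722 ± 77.1 TPM for complex III.

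Partner isoforms of complex IV were outweighed by the common forms in every table. Of these partners, Cox6a2 and Cox4i2 were lower in both brain tables than in the fixed embryo. Cox6a2, the heart and skeletal muscle form of subunit 6a, was listed at 0 in all 4 libraries of E12.5 brain, against 133, 108, 109 and 120.4 TPM in the antibody libraries of the fixed embryo. In E16.5 brain it stood at 1.69, 2.58, 0.516 and 0.673 TPM, and it was not among the genes listed for the libraries labelled fresh-frozen. Its share of the Cox6a1 and Cox6a2 sum was 0.101 ± 0.0704% in E16.5 brain and 7.96 ± 0.878% in the fixed embryo (SD, n = 4 each). All 10 heart markers were at 1 TPM or more in the fixed embryo and 3 of 10 in E12.5 brain, where they summed to 22.2 to 68.0 TPM against 4287 to 5658 TPM in the fixed embryo. Their part in the Cox6a2 difference was not tested.

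Cox4i2, the partner of Cox4i1 known from lung and from low oxygen, was listed at 0 in 3 of the 4 libraries of E12.5 brain and at 8.45 TPM in the second anti-G3BP1 library, against 63.7, 55.6, 41.8 and 46.2 TPM in the fixed embryo. E16.5 brain had 6.21, 10.03, 14.3 and 7.84 TPM. In each table Cox4i1 was the main form, and Cox4i2 held 0.160 ± 0.320% of the pair in E12.5 brain and 5.63 ± 0.816% in the fixed embryo. Cox6b2, known as a testis form of subunit 6b, went another way: it stood at 15.1, 25.04, 29.1 and 24.1 TPM in E16.5 brain against 69.1, 55.6, 91.1 and 47.3 TPM in E12.5 brain, with no overlap. Its share of the Cox6b1 and Cox6b2 sum was 2.04 ± 0.570% in E16.5 brain and 6.80 ± 2.70% in E12.5 brain.

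Cox7a1, a heart and muscle form of subunit 7a, was minor beside Cox7a2 and varied widely between libraries. It held 7.07 ± 0.870% of the pair in the fixed embryo, 6.88 ± 3.84% in brain at E12.5 and 4.57 ± 1.89% at E16.5 (SD, n = 4 each), ranges that overlapped. Cox8b, a heart and muscle form of subunit 8, was listed at 4.32 TPM or less and only for the fixed embryo and the libraries labelled fresh-frozen. Cox8c and Cox7b2, both known from testis, stayed at or under 3.42 TPM in every library that lists them. Ndufa4, which carries a complex I name but is known as a complex IV subunit, kept its hypoxia-linked paralog Ndufa4l2 at 7.01 ± 0.563% of the pair in E16.5 brain and 5.07 ± 1.60% in E12.5 brain. The identical ring subunit c of ATP synthase is encoded by 3 genes, and Atp5g3 supplied 90.7 ± 0.681% of their summed TPM in the fixed embryo, 91.0 ± 3.05% in brain at E12.5 and 89.2 ± 0.617% at E16.5.

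**Figure D2:**
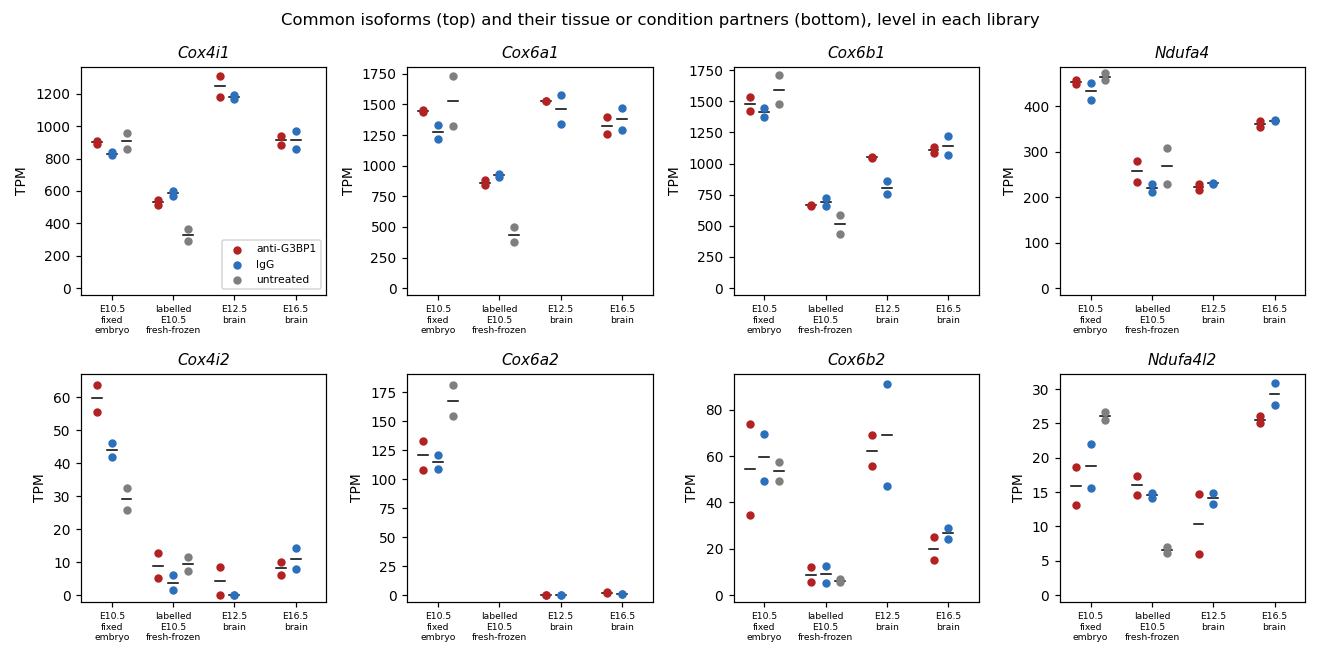
Level in TPM of 4 common isoforms (top row) and their partners (bottom row), 1 point per library, with black bars for group means and colours for anti-G3BP1, IgG and untreated libraries. Cox6a2 is present in the fixed embryo, at 108 to 181 TPM over the 6 libraries, and at 0 in E12.5 brain, while Ndufa4 is higher at E16.5 than at E12.5.

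Whether respiratory chain transcripts changed in the brain between E12.5 and E16.5 was tested with limma on log2(TPM + 1), with p-values adjusted over all genes. The fit used TPM rescaled over the genes both tables list, because the tables were deposited separately, and the levels printed here are as deposited. Of 87 members tested, 30 were higher and 13 lower in E16.5 brain, and 44 did not pass an adjusted p of 0.05. Over all 20162 genes, 32.3% were called higher and 17.7% lower, so both counts are near the background. The median difference was 0.16 over members and 0.17 over all genes (log2). Among complex I members 14 of 40 rose and 8 fell, in complex III 2 of 8 rose and none fell, in complex IV 9 of 17 rose and 3 fell, and in complex V 5 of 18 rose and 2 fell. The complex I members that rose include the pseudogene Ndufb4c, listed at 0 in all E12.5 libraries. The complex IV members that rose include Cox6a2, Cox7b2 and Cox4i2, which were at or near 0 in E12.5 brain. The complex V members that rose include both overlapping Atp5o IDs. No complex II gene passed, with differences of -0.24 to 0.30. When the change was centred on the median of all genes, 20 members rose and 28 fell, so the balance of directions depends on the scaling.

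Ndufa4 showed the smallest p among the members that rose. It stood at 353, 367, 366 and 368 TPM in E16.5 brain, against 216, 229.6, 229 and 231 TPM in E12.5 brain. All E16.5 libraries were above all E12.5 libraries, a log2 difference of 0.68 ± 0.06 (SE, limma adjusted p = 3.64e-05). Ndufa11, an accessory subunit of the complex I membrane arm, stood at 173, 198, 173 and 191 TPM in E16.5 brain against 115, 113, 100.4 and 102 TPM in E12.5 brain, again without overlap, and differed by 0.76 ± 0.08 (SE, limma adjusted p = 7.6e-05). Ndufs5, another membrane-arm accessory subunit, stood at 123, 114, 121 and 111 TPM in E16.5 brain and 50.9, 63.3, 67.7 and 85.4 TPM in E12.5 brain, a difference of 0.83. Atp5c1, the gamma subunit that turns inside ATP synthase, averaged 274 ± 6.46 TPM in E16.5 brain and 178 ± 28.6 TPM in E12.5 brain (SD, n = 4 each), a difference of 0.63 ± 0.09 (SE, limma adjusted p = 0.000538). For Ndufs5 and Atp5c1 too, the lowest E16.5 library lay above the highest E12.5 library.

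The complex III members that rose, named after their values were seen, were Uqcrh, a hinge protein that binds cytochrome c1, at 0.36 and Uqcrb, which lies near the ubiquinone site, at 0.46 (log2). Cox7b and Cox6c, small subunits of complex IV, rose by 0.83 and 0.74, and Cox7b averaged 265 ± 10.6 TPM in E16.5 brain and 157 ± 60.7 TPM in E12.5 brain. Its E12.5 libraries spread by antibody, with 115 and 100.2 TPM under anti-G3BP1 and 182 and 231 TPM under IgG, and with the IgG libraries alone it differed by 0.35 and did not pass. Atp5md, a small subunit at the ATP synthase dimer, and Atp5g1, a c subunit gene, rose by 0.83 and 0.75. Atp5g1 also did not pass with IgG libraries alone. Ndufb2, an accessory subunit of complex I, rose by 0.80 and Ndufa4l2 by 1.17, and Ndufa4l2 reached 27.4 ± 2.58 TPM in E16.5 brain against 12.2 ± 4.21 TPM in E12.5 brain. Both Atp5o IDs, which encode the oligomycin sensitivity subunit, rose by 0.57 and 0.58, and since they overlap they count as a single observation.

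Among members that fell, Ndufa2, an accessory subunit of the complex I matrix arm, moved most among the abundant genes. It stood at 344, 393, 365 and 406 TPM in E16.5 brain, against 810.1, 739, 721 and 556 TPM in E12.5 brain. The groups did not overlap, and the log2 difference was -0.89 ± 0.12 (SE, limma adjusted p = 0.00026). Ndufb8 averaged 111 ± 6.28 TPM in E16.5 brain and 173 ± 14.4 TPM in E12.5 brain, and Ndufa10 125 ± 8.33 TPM in E16.5 brain and 178 ± 10.9 TPM in E12.5 brain, with differences of -0.63 and -0.51. Ndufs8, which carries iron-sulfur clusters in the core of complex I, differed by -0.45, Ndufa9 by -0.37 and Ndufb7 by -0.35. The calls of Ndufa9 and Ndufb7 lay close to the threshold. Ndufa9 did not pass without either anti-G3BP1 library of E16.5 brain, its second IgG library, the first anti-G3BP1 or the second IgG library of E12.5 brain (differences of -0.29 to -0.37, limma adjusted p 0.0697 to 0.0942). Ndufb7 did not pass without either anti-G3BP1 library or the first IgG library of E16.5 brain, or without the second anti-G3BP1 or second IgG library of E12.5 brain (differences of -0.28 to -0.34, limma adjusted p 0.0562 to 0.0696). With the IgG libraries alone they differed by -0.23 and -0.27 and neither passed. Of ATP synthase, Atp5j, coupling factor 6, fell by 0.33 and Atp5b by 0.20, both named after their values were seen. Cox4i1, the common subunit 4 of complex IV, stood at 886, 939, 860.2 and 970.4 TPM in E16.5 brain and 1183, 1311, 1192 and 1169 TPM in E12.5 brain, with every E16.5 library below every E12.5 library, and differed by -0.41 ± 0.07 (SE, limma adjusted p = 0.00177). Cox6b2 fell by 1.45, with an adjusted p of 0.000906 in limma.

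Pseudogenes went both ways. Ndufb4c, listed at 0 in all E12.5 libraries, rose by 1.26, whereas Ndufs6b and Cox6c2 fell by 1.61 and 1.16 (log2). Ndufs6b stood at 19.0, 32.3, 20.2 and 30.2 TPM in E16.5 brain and 128, 104, 55.8 and 48.9 TPM in E12.5 brain, and Cox6c2 at 61.1, 48.6, 35.7 and 55.4 TPM in E16.5 brain and 189, 214, 67.2 and 55.9 TPM in E12.5 brain. In E12.5 brain Ndufs6b and Cox6c2 were higher in the anti-G3BP1 libraries than in the IgG libraries. Cox6c and Ndufs6, the genes Cox6c2 and Ndufs6b are named after, rose by 0.74 and 0.32. With the IgG libraries alone Cox6c2 differed by -0.45 and did not pass. Reads of a processed pseudogene and its parent can be exchanged in counting, so these values are uncertain.

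**Figure D3:**
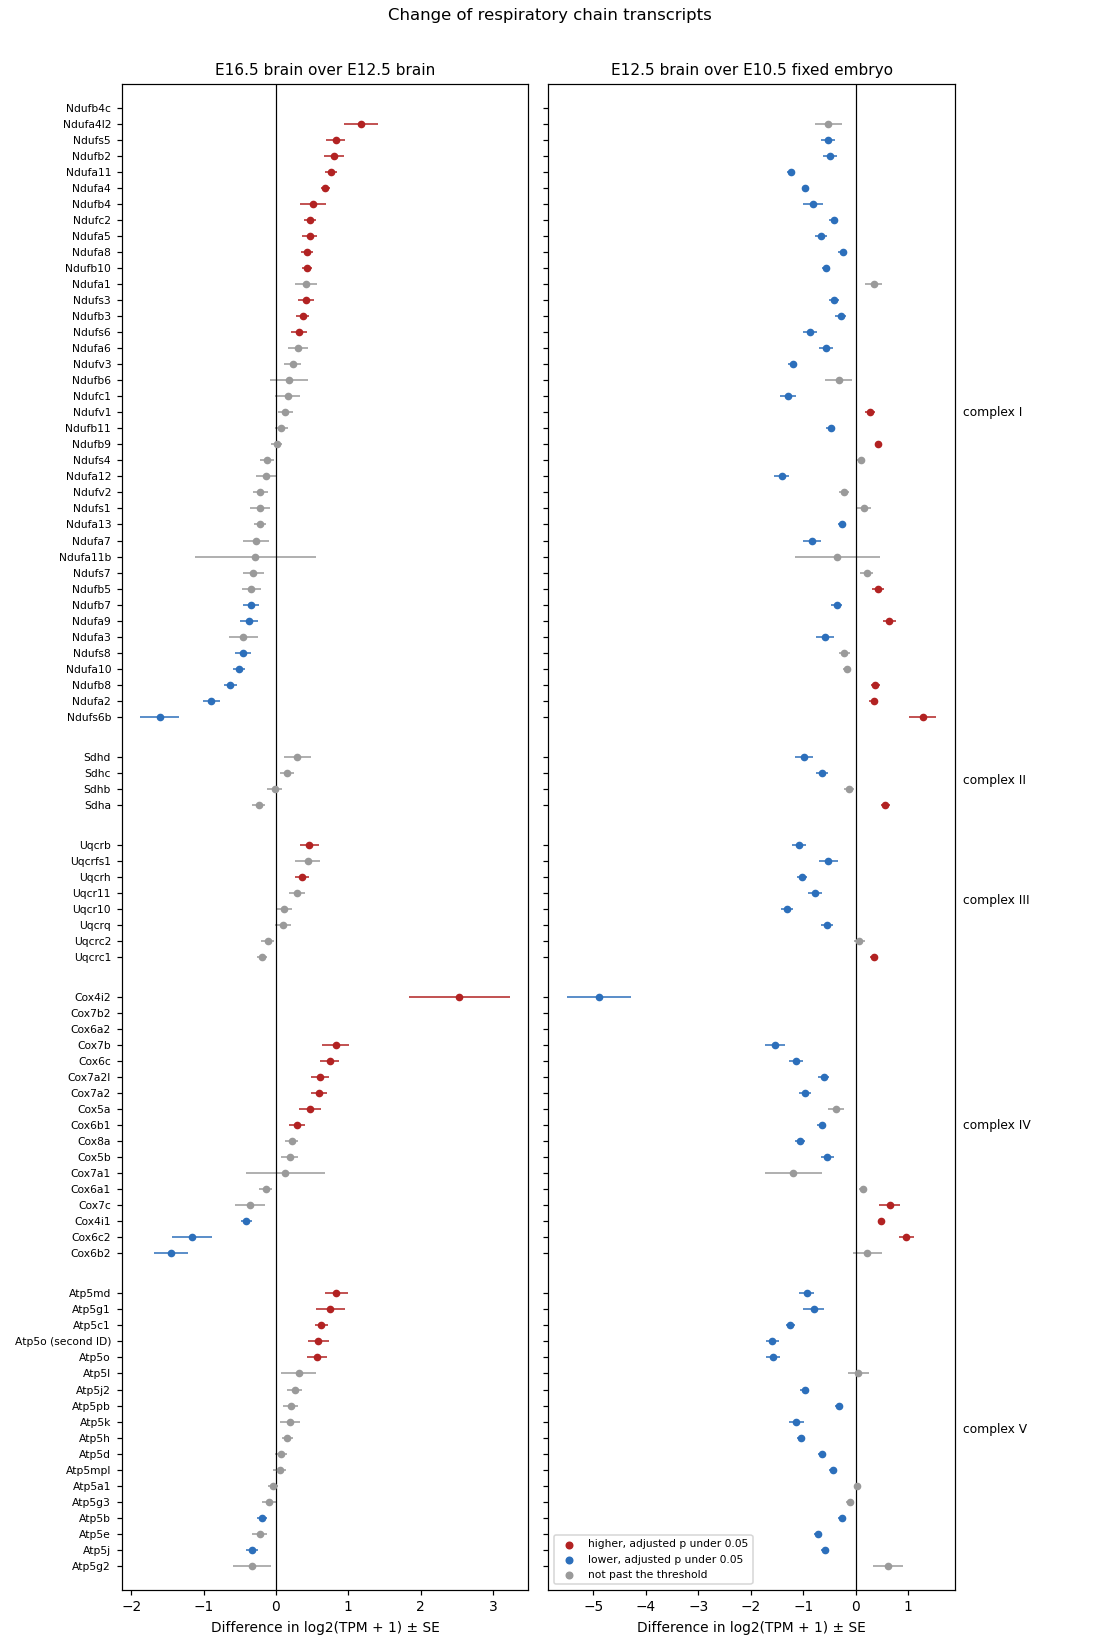
Difference in log2(TPM + 1) with its standard error for members tested, grouped by complex, for E16.5 brain over E12.5 brain (left) and E12.5 brain over the fixed embryo (right). Red and blue points passed an adjusted p of 0.05 as higher or lower, grey points did not, and Cox6a2, Cox7b2 and Ndufb4c, listed at 0 in all E12.5 libraries, are left out, and 1 further member is not shown. On the left 30 of 87 members tested were higher and 13 lower, on the right 13 of 85 higher and 52 lower, these counts including the members not drawn.

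Cell type markers moved with this comparison. Neuron markers summed to 6675 to 6816 TPM in E16.5 brain and 3211 to 3817 TPM in E12.5 brain, and neural progenitor markers to 1827 to 2378 TPM in E16.5 brain and 4029 to 4310.3 TPM in E12.5 brain. Astroglial markers summed to 285 to 355 TPM in E16.5 brain and 73.0 to 161 TPM in E12.5 brain, and erythroid markers to 1432 to 1551 TPM in E16.5 brain and 8851 to 12449 TPM in E12.5 brain. All 9 neuron markers rose and 8 of 9 progenitor markers fell. Their part in the changes of respiratory chain genes was not tested. Stage and table cannot be told apart, and with the IgG libraries alone 18 members rose and 8 fell.

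Other genes of mitochondrial and glucose metabolism were read in the same fit. Over all genes in it, 32.3% were called higher and 17.7% lower, and list counts near these shares are not read as changes of a list. Of the 13 mitochondrially encoded subunits, 9 fell in E16.5 brain and none rose, with a list median of -0.48 (log2) beside 0.17 over all genes. mt-Nd6, a complex I subunit, averaged 3540.2 ± 654 TPM in E16.5 brain and 9158 ± 228 TPM in E12.5 brain (SD, n = 4 each), and mt-Co2, mt-Atp6 and mt-Atp8 differed by -1.71, -1.90 and -1.40. Those last transcripts stood at 55.8 to 116 TPM in E12.5 brain, far below mt-Nd6, and how mitochondrial reads were assigned is not given in the sources used here. Of complex I assembly factors 1 of 15 rose and 1 fell (Ndufaf3 at 0.26 and Ndufaf8 at -0.68), and of those for complexes II to V 10 of 32 rose and 2 fell, with Cmc2, an assembly factor of complex IV, at -1.15. Ttc19, needed for complex III, averaged 66.3 ± 4.13 TPM in E16.5 brain and 32.9 ± 6.10 TPM in E12.5 brain (SD, n = 4 each) and rose. Among electron carriers and further subunits 2 of 8 rose and 2 fell, with Cycs, cytochrome c, at 0.71, Higd2a at 0.39, Cyc1, cytochrome c1, at -0.27 and Etfb, an electron transfer flavoprotein, at -0.73.

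In the TCA cycle and pyruvate dehydrogenase list 11 of 24 rose and 4 fell, beside 32.3% and 17.7% of all genes. The counts of the next lists stand beside the same shares. Pdp1, which activates pyruvate dehydrogenase, averaged 44.7 ± 2.59 TPM in E16.5 brain and 14.0 ± 2.63 TPM in E12.5 brain, and Pdk1, which inactivates it, differed by 1.52. Of the gene IDs on the glycolysis list, where Aldoa has 2, 10 of 20 rose and 3 fell. Eno2 and Pfkp, forms known from neurons and platelets, stood at 123 ± 10.7 TPM and 136 ± 23.7 TPM in E16.5 brain, against 14.5 ± 4.42 TPM and 20.6 ± 3.60 TPM in E12.5 brain. Among regulators of respiratory chain genes 5 of 22 rose and 1 fell. Ppargc1a, a coactivator that promotes mitochondrial biogenesis, averaged 9.48 ± 0.888 TPM in E16.5 brain and 1.77 ± 1.01 TPM in E12.5 brain, a difference of 1.99. Mycn and Myc, growth-promoting transcription factors, differed by 0.91 and 1.93, and Epas1, a hypoxia-inducible factor, by 1.13.

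Against the E10.5 fixed embryo, most respiratory chain transcripts were lower in E12.5 brain. Of 85 members tested 52 fell, against 19.6% of all 20248 genes, and 13 rose, against 29.3% of all genes. The median difference was -0.52 over members and 0.13 over all genes (log2). By complex, 21 of 39 members of complex I fell and 8 rose, in complex II 2 of 4 fell and 1 rose, in complex III 6 of 8 fell and 1 rose, in complex IV 9 of 16 fell and 3 rose, and in complex V 14 of 18 fell and none rose. The complex V members that fell again include both overlapping Atp5o IDs. Stage, tissue and preparation differ together here and cannot be told apart. With the IgG libraries alone 36 members fell and 5 rose, and centred on the median change of all genes 58 fell and 7 rose.

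Beside Cox6a2 and Cox4i2, described above, Atp5o, Cox7b, Ndufa12 and Uqcr10 fell most. Atp5o (ENSMUSG00000116933) stood at 283, 229.9, 392 and 396 TPM in E12.5 brain, against 907, 966, 949.8 and 1001 TPM in the fixed embryo, a difference of -1.59 ± 0.13 (SE, limma adjusted p = 2.04e-05). The second ID, Atp5o (ENSMUSG00000022956), differed by -1.58. Uqcr10, a small complex III subunit, stood at 325, 259, 316 and 388 TPM in E12.5 brain and 785, 827, 769 and 775 TPM in the fixed embryo and differed by -1.30 ± 0.11 (SE, limma adjusted p = 3.12e-05). In each of these genes the groups did not overlap. Cox7b differed by -1.53, Ndufa12, an accessory subunit of the complex I matrix arm, by -1.41, Ndufc1 by -1.29, Atp5c1 by -1.25 and Ndufa11 by -1.23. Of these, Cox7b, Atp5c1 and Ndufa11 were also higher in E16.5 than in E12.5 brain, and the E12.5 libraries are shared by both comparisons.

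Sdha, the catalytic subunit of complex II, was among the members that rose. It stood at 182, 150.4, 158 and 143 TPM in E12.5 brain, against 105, 106, 106 and 109 TPM in the fixed embryo. Every E12.5 library was above every library of the fixed embryo, with a difference of 0.57 ± 0.09 (SE, limma adjusted p = 0.000931). The membrane anchors Sdhc and Sdhd fell by 0.63 and 0.99 and the iron-sulfur subunit Sdhb differed by -0.13 and did not pass. The complex II transcripts therefore differed in direction. Uqcrc1, a core protein of complex III named here after its values were seen, rose by 0.35. Cox4i1 rose by 0.49, Ndufb9 by 0.43, Ndufa9 by 0.64 and Ndufb8 by 0.37. Cox7c rose by 0.65 and Ndufb5 by 0.42, and neither passed when changes were centred on the median of all genes, nor did Ndufb8. With the IgG libraries alone Ndufa9 differed by 0.50 and did not pass (limma adjusted p = 0.0889), and Cox7c, Ndufb5 and Ndufb8 did not pass either. Ndufb5 also did not pass without the antibody term (limma adjusted p = 0.0525). Cox7c also did not pass without the first anti-G3BP1 or first IgG library of E12.5 brain, or without the second anti-G3BP1 or either IgG library of the fixed embryo (limma adjusted p 0.0517 to 0.0744). The pseudogenes Ndufs6b and Cox6c2 rose by 1.27 and 0.97, Ndufs6b not with the IgG libraries alone and Cox6c2 not without the antibody term.

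Markers of heart, liver and trunk, all 22 of which fell, are given beside this comparison. Liver and yolk sac markers summed to 3.03 to 20.5 TPM in E12.5 brain and 580.1 to 773 TPM in the fixed embryo, and erythroid markers to 8851 to 12449 TPM in E12.5 brain and 13474 to 15562 TPM in the fixed embryo. Neural progenitor markers summed to 4029 to 4310.3 TPM in E12.5 brain and 1828 to 2069 TPM in the fixed embryo. Their part in the changes was not tested. For the gene lists that follow, 19.6% of all genes were called lower and 29.3% higher, and counts near these shares are not read as changes of a list. Of the gene IDs on the glycolysis list 14 of 20 fell and 4 rose, with a list median of -0.70. Aldoa, a glycolytic aldolase, averaged 213 ± 22.5 TPM in E12.5 brain and 951 ± 7.49 TPM in the fixed embryo, and Eno1 and Ldha differed by -2.31 and -1.72. In the TCA cycle list 10 of 24 fell and 3 rose, with Cs, the citrate synthase gene, at -0.93. Assembly factors for complexes II to V fell in 14 of 32 cases and 1 rose, and of complex I assembly factors 4 of 15 rose and none fell. Tmem186 and Ndufaf3, both complex I assembly factors, differed by 1.07 and 0.70. Of the mitochondrially encoded subunits 4 of 13 fell, mt-Nd5 by 1.24, and mt-Co2 rose by 0.45. Electron carriers and further subunits fell in 4 of 8 cases, and among regulators 3 rose and 6 fell of 22.

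IgG libraries were compared with untreated libraries, which received neither antibody nor enzyme. In the fixed embryo no member of 86 passed in limma, as none of 18157 genes did (0%; 2022 at an unadjusted p under 0.05), and 8 members had an unadjusted p under 0.05. In the libraries labelled fresh-frozen, 2 of 86 members were higher and 5 lower with IgG, beside 2.81% and 3.11% of all genes. Cox6a1 stood at 908 and 932 TPM with IgG, against 376 and 498 TPM untreated, a difference of 1.09 ± 0.18 (SE, limma adjusted p = 0.0381). Cox4i1 stood at 572 and 601 TPM with IgG and 289 and 364 TPM untreated and differed by 0.85. The members that were lower were Atp5c1, Atp5pb, Uqcrfs1 (the Rieske protein of complex III), Sdha and Atp5a1. Atp5c1 stood at 166 and 185 TPM with IgG and 371 and 462 TPM untreated, a difference of -1.24 ± 0.16 (SE, limma adjusted p = 0.0308), and the other 4 differed by -1.22, -0.88, -0.86 and -0.79. Without either untreated library no member passed (for these 7, limma adjusted p 0.0542 to 0.106). Without the first IgG library Cox4i1, Uqcrfs1 and Atp5a1 did not pass (limma adjusted p 0.0649 to 0.0740), and without the second Cox4i1 and Atp5a1 did not (limma adjusted p 0.0684 to 0.0695).

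The summed complex IV level was 3522 to 3699.7 TPM over the antibody libraries, against 2197 and 2979.6 TPM untreated, while complex V was 2711 to 2882 TPM over the antibody libraries, against 3441 and 4169.6 TPM untreated. Complex IV was thus higher and complex V lower in all 4 antibody libraries. Cell type markers differed as well. Of the neural progenitor markers 3 of 9 were lower with IgG and none higher, with a list median of -0.88 (log2), and their sums were 873 and 875 TPM with IgG, against 1401 and 1661 TPM untreated. Of the astroglial markers 2 of 4 tested were lower, with a list median of -1.72, and their sums were 154 and 172 TPM with IgG, against 304 and 312 TPM untreated. Neuron markers summed to 5767 and 6222 TPM with IgG, against 7596 and 8135 TPM untreated, and 1 of 9 was lower. The anti-G3BP1 libraries summed to 1609.9 and 1625 TPM for progenitor markers, within the range of the untreated libraries. The part of these markers in the differences was not tested. Transcript length moved with this difference. Across 82 members, the correlation of the change with log10 transcript length was Pearson -0.29 (Spearman -0.32), against -0.06 (-0.05) across 14259 other protein-coding genes. Genes are not independent replicates and all points share the same 4 libraries. The main annotated transcript of Cox6a1 is 571 bases and that of Sdha 2900 bases, which go with this correlation. Other members went against it: Ndufb2 (4371 bases) and Sdhc (3171 bases) differed by 0.44 and 0.47, and Cox4i2 (733 bases) by -1.30, none past the threshold. The part of length in the differences was not tested.

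The members share features that the symbol rule did not use. Their transcripts are short: the main annotated transcript, that with the longest coding sequence, had a median of 765 bases (quartiles 581 and 1307) over 83 protein-coding members, against 2922 bases (quartiles 1836 and 4422) over 14894 other protein-coding genes tested. Coding sequences had a median of 408 bases in members and 1374 bases in the other genes, and 3′ UTRs one of 156 bases in members and 922 bases in the other genes. Promoter windows of defined length, from 250 before to 50 after the start in RefSeq (GRCm38.p6), were found for 68 member symbols. The core GCGCANGCG bound by NRF1, a regulator of respiratory chain genes, was present on either strand in 20 of them (29.4%), against 7.03% of 27025 genes with a window. CCGGAAG, a core of ETS factors such as GABPA, was in 17 of the 68 member windows and in 9.93% of all windows, and AAGATGGC, a YY1 core, in 14.7% of member windows and 3.19% of all windows. A match is a description of the sequence, not a site of binding.

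Windows around the NRF1 core are shown for 4 members that hold the NRF1 core and the ETS core in 1 window. They show how the same core sits in genes of 3 complexes. Atp5l and Uqcr11, for which both cores were also found, are not shown. Capitals mark the letters that match one of the motifs on either strand.
Cox6a1: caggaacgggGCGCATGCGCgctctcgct
Sdhd: tcgctggggtGCGCACGCGcggtggcagc
Atp5h: gaccccgacgGCGCAGGCGccgcgcccgc
Atp5k: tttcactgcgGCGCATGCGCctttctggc
The core shown starts 162 bases before the start site in Cox6a1, 79 in Sdhd, 141 in Atp5h and 50 in Atp5k, and the windows lie in promoters on chromosomes 5, 9, 11 and 5, all on the minus strand. The Cox6a1 promoter holds a further NRF1 core outside the window shown. In E16.5 over E12.5 brain the log2 difference was -0.14 for Cox6a1, 0.30 for Sdhd, 0.16 for Atp5h and 0.19 for Atp5k, none past the threshold. In E12.5 brain over the fixed embryo Sdhd, Atp5h and Atp5k fell by 0.99, 1.04 and 1.13, whereas Cox6a1 differed by 0.14 and did not pass.

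The G3BP1 readout was read from edited shares, the percentage of reads with the edited base at sites of a gene. Pooled over all kept sites of the members, the edited share in each table was higher in the anti-G3BP1 libraries than in the IgG libraries. In the fixed embryo it was 0.328 ± 0.00599% with anti-G3BP1 and 0.253 ± 0.0189% with IgG (SD, n = 2 each), a ratio of 1.30. For the libraries labelled fresh-frozen it was 1.23 ± 0.131% with anti-G3BP1 and 0.585 ± 0.0468% with IgG, a ratio of 2.11. In E12.5 brain it was 0.290 ± 0.121% with anti-G3BP1 and 0.115 ± 0.0342% with IgG, a ratio of 2.52, which lay between 1.78 and 3.26 when 1 library was left out. In E16.5 brain it was 0.2503 ± 0.00956% with anti-G3BP1 and 0.154 ± 0.00642% with IgG, a ratio of 1.63. Both anti-G3BP1 libraries lay above both IgG libraries in every table. These shares carry no test, since the members were chosen with results of these data known.

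The same ratio over all other genes was 1.27 in the fixed embryo, 1.90 in the libraries labelled fresh-frozen, 1.95 in brain at E12.5 and 1.62 at E16.5. The mean share with anti-G3BP1 was lower in members than in other genes in the fixed embryo and both brain tables. In E16.5 brain it was 0.2503 ± 0.00956% at member sites and 0.360 ± 0.0200% at other sites, and with IgG 0.154 ± 0.00642% at member sites and 0.222 ± 0.00765% at other sites. The anti-G3BP1 shares of the libraries labelled fresh-frozen were 1.23 ± 0.131% at member sites and 1.23 ± 0.0196% at other sites. Untreated libraries had 0.373 ± 0.0269% at member sites there, against 0.202% and 0.570% in the fixed embryo, the second of these from the shallow library. Its share exceeded both anti-G3BP1 libraries of the same table, and without it the untreated share was below both IgG libraries.

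Kept sites in members lay mostly in coding sequence, 71.4% of 1382 sites in E16.5 brain against 23.8% of 335954 sites in other genes, where 71.0% lay in 3′ UTRs against 24.5% in members. Within members the 3′ UTR sites had a ratio of anti-G3BP1 over IgG of 2.00 and the coding sites of 1.53 in E16.5 brain, beside 1.73 and 1.44 in other genes. A-to-G sites, the product of the ADAR2 part, had higher ratios than C-to-T sites. Their member ratios were 1.44 against 1.26 in the fixed embryo, 2.73 against 1.63 in the libraries labelled fresh-frozen, 4.497 against 1.49 in brain at E12.5 and 1.87 against 1.38 at E16.5. In other genes of E16.5 brain they were 1.90 against 1.39.

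**Figure D4:**
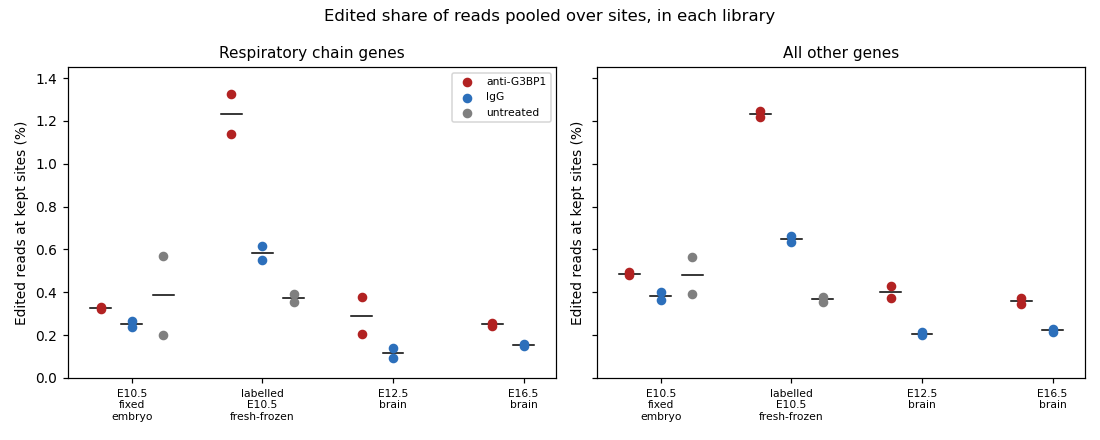
Edited share of reads in percent at kept sites of respiratory chain genes (left) and of all other genes (right), 1 point per library, black bars for the mean of each group. In every table both anti-G3BP1 points lie above both IgG points, and the member shares in E16.5 brain are 0.2503 ± 0.00956% with anti-G3BP1 and 0.154 ± 0.00642% with IgG (SD, n = 2 each).

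Gene by gene, anti-G3BP1 was compared with IgG by a quasi-binomial logistic model on edited and unedited reads, with p-values adjusted over all genes. In E16.5 brain 2 of 77 members tested were called higher and none lower, beside 6.75% of 11741 genes. In the libraries labelled fresh-frozen 1 of 64 members was called higher, beside 1.45% of 7836 genes. Both counts are close to or below the background. No member was called in E12.5 brain (64 tested, 0% of all genes) or in the fixed embryo (71 tested, 0.0179% of all genes), where 3 and 1 members had an unadjusted p under 0.05, and edgeR and limma on the empirical logit called no member there either. The median member rested on 11 edited reads over the antibody libraries in the fixed embryo, 11 in the libraries labelled fresh-frozen, 4 in brain at E12.5 and 21 at E16.5.

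The median log2 odds ratio was 0.45 over members and 0.31 over all genes in the fixed embryo, 0.63 over members and 0.91 over all genes in the libraries labelled fresh-frozen, 0.92 over members and 0.61 over all genes in brain at E12.5 and 0.54 over members and 0.65 over all genes at E16.5. Among the tested members, in that order of tables, values were positive for 48 of 71, 47 of 64, 41 of 64 and 52 of 77. Over all genes tested they were positive for 3456 of 5594, 6205 of 7836, 3632 of 5568 and 9118 of 11741. Positive values were thus common in all genes, not in members alone. Complex II was positive in all 4 members in E16.5 brain, with a median of 1.22, and none of the 4 was called. For IgG over untreated, no member was called in the fixed embryo or in the libraries labelled fresh-frozen, where none of all genes was either (0% in both), and 0 and 2 members had an unadjusted p under 0.05. Neither edgeR nor limma on the empirical logit called a member.

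Both calls in E16.5 brain were subunits of ATP synthase. Atp5a1, the alpha subunit, had 35 of 10468 and 47 of 19391 reads edited with anti-G3BP1, against 14 of 19764 and 21 of 13467 with IgG, over 78 sites. The shares did not overlap, and the log2 odds ratio was 1.37 ± 0.39 (SE, adjusted p = 0.0126). Atp5pb, a peripheral stalk subunit, had 27 of 7860 and 61 of 12395 reads edited with anti-G3BP1 and 14 of 10348 and 20 of 9244 with IgG, a log2 odds ratio of 1.31 ± 0.39 (SE, adjusted p = 0.0177). Atp5a1 was not called without the first anti-G3BP1 or the first IgG library (adjusted p 0.165 to 0.710) and Atp5pb not without any 1 of the 4 (adjusted p 0.0512 to 0.538), and neither was called from C-to-T sites alone or with limma. In the libraries labelled fresh-frozen Atp5a1 had 28 of 915 and 41 of 1060 edited reads with anti-G3BP1, against 4 of 767 and 7 of 664 with IgG and 3 of 1659 and 5 of 1631 untreated, a log2 odds ratio of 2.17 ± 0.64 (SE, adjusted p = 0.0914). Atp5pb had 15 of 847 and 39 of 1113 with anti-G3BP1, 2 of 697 and 2 of 671 with IgG and 6 of 2003 and 7 of 2405 untreated, with 3.12 ± 1.01 (SE, adjusted p = 0.127). Both missed the threshold in these libraries and passed it in edgeR or with a gene minimum of 200 reads.

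Cox4i1 was the call in the libraries labelled fresh-frozen. It had 40 of 376 and 67 of 534 reads edited with anti-G3BP1, against 3 of 360 and 8 of 370 with IgG and 0 of 185 and 0 of 172 untreated, all at 1 site. The log2 odds ratio was 3.07 ± 0.64 (SE, adjusted p = 0.0105), and the call was lost without any 1 of the 4 libraries (adjusted p 0.164 to 0.540), while the log2 odds ratio stayed at 2.55 to 3.88. In E12.5 brain Cox4i1 had 11 of 1937 and 14 of 2437 edited reads with anti-G3BP1 and 0 of 823 and 1 of 2516 with IgG, and in E16.5 brain 12 of 3578 and 27 of 6948 with anti-G3BP1 and 12 of 6726 and 13 of 5538 with IgG. Neither passed, with adjusted p of 0.826 and 0.391. Whether the effect differs between tables was not tested. In E16.5 brain Sdhc, a membrane anchor of complex II, and Ndufv1, the complex I subunit that binds NADH, had log2 odds ratios of 0.87 and 0.88 and did not pass.

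The most edited members of E12.5 brain did not pass either. Atp5b, the catalytic beta subunit, had 21 of 4338 and 8 of 4985 reads edited with anti-G3BP1 and 4 of 1623 and 7 of 5568 with IgG, and Ndufa10 9 of 2226 and 7 of 2161 with anti-G3BP1 and 1 of 641 and 4 of 2530 with IgG. Atp5a1 there had 23 of 3252 and 11 of 3843 with anti-G3BP1 and 0 of 1358 and 5 of 4258 with IgG, with an adjusted p of 0.826. In the fixed embryo Sdha had 21 of 1769 and 0 of 1386 reads edited with anti-G3BP1, 11 of 2680 and 5 of 1933 with IgG and 2 of 1610 and 2 of 414 untreated, so that the first anti-G3BP1 library alone set its value. Ndufs4, an accessory subunit of complex I, had 8 of 1271 and 13 of 925 with anti-G3BP1, 4 of 1956 and 4 of 1231 with IgG and 3 of 1492 and 0 of 471 untreated, a log2 odds ratio of 1.89 ± 0.84 (SE, adjusted p = 0.907). Atp5pb, Uqcrc1 and Atp5a1 had log2 odds ratios of 0.12, 1.13 and 0.47 in that table, none called, and the signs of Atp5pb and Atp5a1 turned without some single libraries. Sdha had a log2 odds ratio of 0.32 in the libraries labelled fresh-frozen and was not called.

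Editing was concentrated at few positions. Of 2727 member sites kept in at least 1 table, 1082 had no edited read listed in any library and 33 had 10 or more, of which 25 were A-to-G sites. Only 35 sites were kept in 3 tables and 1 in all 4, so most values come from different positions in different tables. The sites with the most edited reads, summed over all libraries with the anti-G3BP1 libraries included, were chosen after their values were seen. That choice favours sites with high anti-G3BP1 shares, so the order of libraries at them is description only. The transcript sequences of 5 of these sites are shown because the values below turn on them. Each line has 12 bases on either side of the edited base, which is in capitals, 5′ to 3′ on the transcript strand, as DNA letters, from the GENCODE transcripts of GRCm38.
Cox4i1: agaatgagtggaAgaagtgagagcc
Atp5pb: caaggtccacttAgtggcttaaccc
Atp5d: ggttcacacagaAgacggcaccacg
Cox7b: ttctgtgtttctAcatggacatata
Cox6a1: cctcatgtgaacCcacttccgaccg
The Cox4i1 site lies in the coding sequence at chr8:120674100 (plus strand), the Atp5pb site in the 3′ UTR at chr3:105942875 (minus strand), the Atp5d site in the coding sequence at chr10:80143960 (plus strand), the Cox7b site in the coding sequence at chrX:106019692 (plus strand) and the Cox6a1 site in the coding sequence at chr5:115345872 (minus strand). The first 4 are A-to-G sites and the last is a C-to-T site.

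At the Cox4i1 site the edited share was 10.6% and 12.55% with anti-G3BP1, against 0.833% and 2.16% with IgG in the libraries labelled fresh-frozen, and 0 of 185 and 0 of 172 untreated reads were edited, which allows a share of up to 1.62% and 1.74%. In E16.5 brain it was 4.51% and 5.06% with anti-G3BP1 and 2.11% and 3.02% with IgG, and in E12.5 brain 14.8% and 3.12% with anti-G3BP1, against 0 of 19 and 0 of 63 reads with IgG. In each of these tables both anti-G3BP1 libraries were above both IgG libraries. The IgG reads of E12.5 brain were few, and 0 of 19 and 0 of 63 allow shares of up to 15.8% and 4.76%. The order in E12.5 brain is therefore not settled by these counts. Intervals and limits here cover counting error only, and reads without molecular identifiers are not independent molecules. Single edited reads are often set to 0 in these counts, so a listed 0 can hide 1 edited read. The limits given here and below for a count of 0 are therefore too low. The Atp5pb site was edited in 8 of 165 and 22 of 268 reads with anti-G3BP1 and 4 of 252 and 2 of 170 with IgG in E16.5 brain. In the libraries labelled fresh-frozen it was edited in 11 of 189 and 22 of 244 reads with anti-G3BP1, 2 of 160 and 0 of 133 with IgG and 0 of 330 and 0 of 411 untreated. In E12.5 brain the order did not hold, with 0 of 40 and 1 of 41 with anti-G3BP1 and 0 of 15 and 2 of 52 with IgG.

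A 3′ UTR site of Atp5a1 showed the same order of libraries as that of Cox4i1. It was edited in 25 of 361 and 35 of 405 reads with anti-G3BP1, against 3 of 284 and 2 of 266 with IgG and 0 of 457 and 0 of 464 untreated in the libraries labelled fresh-frozen. E16.5 brain had 16 of 232 and 16 of 441 with anti-G3BP1 and 2 of 458 and 6 of 289 with IgG, and E12.5 brain 5 of 64 and 4 of 83 with anti-G3BP1 and 0 of 31 and 0 of 122 with IgG. Both anti-G3BP1 libraries were above both IgG libraries in each of the 3 tables. In E12.5 brain, however, 0 of 31 IgG reads allows a share of up to 9.68%, above the anti-G3BP1 shares of 7.81% and 4.82%.

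At the Atp5d site, in the delta subunit of the ATP synthase stalk, this order held in 2 of 3 tables. In the libraries labelled fresh-frozen 7 of 101 and 6 of 143 reads were edited with anti-G3BP1, against 0 of 76 and 3 of 99 with IgG and 0 of 122 and 0 of 126 untreated. E16.5 brain had 4 of 213 and 4 of 364 with anti-G3BP1 and 3 of 363 and 0 of 266 with IgG. In E12.5 brain 35 of 108 and 0 of 117 reads were edited with anti-G3BP1 and 0 of 25 and 0 of 108 with IgG, so that all edited reads came from the first anti-G3BP1 library. At the C-to-T site of Cox6a1 the untreated libraries labelled fresh-frozen were edited as well, in 19 of 141 and 17 of 141 reads, against 17 of 222 and 25 of 297 with anti-G3BP1 and 1 of 195 and 10 of 201 with IgG. In E16.5 brain no read of this site was edited, among 330 and 589 reads with anti-G3BP1 and 609 and 501 reads with IgG. A site in the pseudogene Cox6c2 carried the edited base in 17 of 19 and 28 of 28 reads with anti-G3BP1 and 13 of 13 and 24 of 24 with IgG in E16.5 brain. The Cox7b site was edited in 6 of 221 and 5 of 373 reads with anti-G3BP1 and 2 of 400 and 3 of 245 with IgG in E16.5 brain, and in 4 of 44 and 1 of 54 with anti-G3BP1 and 0 of 28 and 2 of 114 with IgG in E12.5 brain. Both anti-G3BP1 shares were above both IgG shares in these tables. In E12.5 brain, however, 1 of 54 and 2 of 114 are shares of 1.85% and 1.75%, and 0 of 28 allows up to 10.7%. The order did not hold in the libraries labelled fresh-frozen, with 2 of 91 and 2 of 137 with anti-G3BP1, 2 of 76 and 0 of 52 with IgG and 0 of 121 and 0 of 142 untreated.

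**Figure D5:**
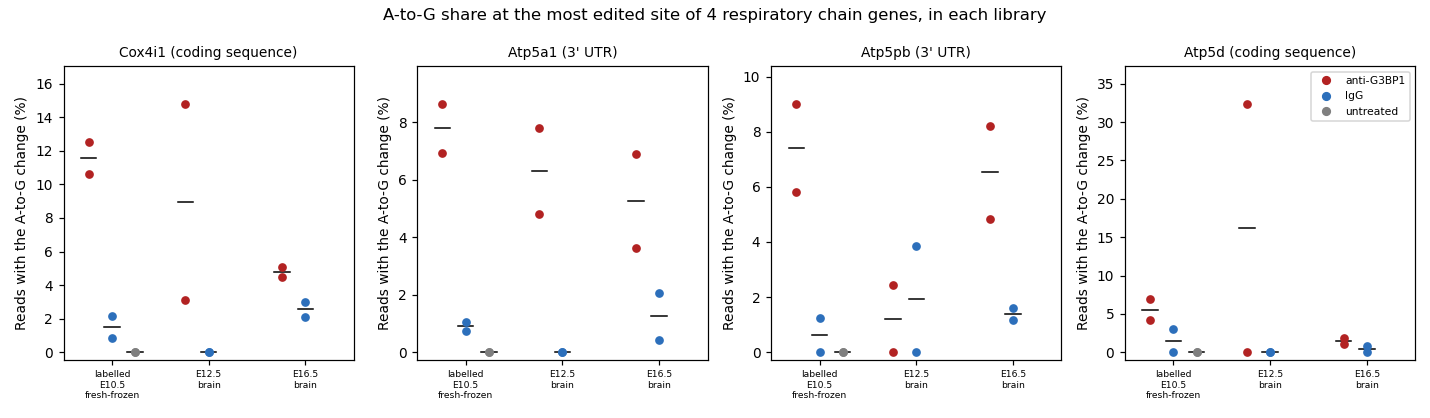
Percentage of reads with the A-to-G change at the most edited site of Cox4i1, Atp5a1, Atp5pb and Atp5d, 1 point per library, black bars for group means, for the 3 tables in which the site was kept. Untreated libraries are at 0 at each of the 4 sites, and the single high point of Atp5d in E12.5 brain, at 32.4%, is the first anti-G3BP1 library.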

How the data were processed

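Poly(A) RNA of 20 libraries was sequenced. Per the submitters' processing notes, the genome build was mm10/GRCm38 and the tools included GATK 4.5.0.0, HISAT2 2.2.1, featureCounts 2.0.1, Picard 3.1.1 and BWA 0.7.17, whose roles and settings the notes do not give. The authors deposited TPM per gene and library, and counts of covering reads and of edited reads per site, in 4 tables of each kind. Unedited reads are the covering reads less the edited reads.

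A site was kept if each library of its table had at least 10 reads there, and kept sites were summed per gene for genes reaching 50 reads in each library. In the deposited counts single edited reads are often set to 0, which lowers small shares. Edited counts were compared by a quasi-binomial logistic model with 0.25 edited and 0.25 unedited reads added per library, moderated with limma 3.58.1 in R 4.3.3. TPM was compared with limma on log2(TPM + 1), using genes that reached 1 TPM in 2 libraries or more, with antibody as covariate between tables; fold changes on this scale understate changes of low genes. Tests are two-sided, with the Benjamini-Hochberg adjustment taken over all genes, and both tests were run on simulated data. The simulated edited reads had the depth of E16.5 brain and no spread between libraries beyond counting. Changes were planted only in genes above a minimum of expected edited reads, so members with few edited reads are not covered. edgeR 4.0.16 was an alternative.

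The members and gene lists were chosen with earlier results of these data known. Named members are, per expression comparison, up to 10 called in each direction with the largest change and 10 TPM or more in the higher group; the 10 highest; isoform sets; and, per editing table, called members and the 5 with most edited reads. A member that the rule names is not reported here. From each other list up to 4 called genes with the smallest p were named. Coordinates are GRCm38; 68 of 88 symbols matched the RefSeq promoter table.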

Additional observations from a re-analysis of the deposited data

Results flagged for a closer look

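In 5 of 72 groups of 4 libraries examined, 1 library stood far from the other 3, where chance alone gives about 1 in 20. Ndufa4 was at 353 TPM in the first anti-G3BP1 library of E16.5 brain, below the others at 366, 367 and 368 TPM, and at 216 TPM in the first anti-G3BP1 library of E12.5 brain, below the others at 229 to 231 TPM. In both stages the gap is far smaller than the difference between stages. Cox4i1 was at 1311 TPM in the second anti-G3BP1 library of E12.5 brain, above the others at 1169 to 1192 TPM. Cox4i2 was at 8.45 TPM in that same library and at 0 in the other 3. Ndufb7 was at 80.0 TPM in the second IgG library of E16.5 brain, above the others at 74.0 to 74.5 TPM.

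Among 19 members examined for opposite directions between tables, 3 had libraries that moved one way in one table and the other way in another. The same count was not made over all genes, and groups of 2 libraries often separate by chance, so these 3 are description only. The differences between tables were not tested. For Cox4i1 TPM, the log2 ratio of mean IgG over mean untreated was -0.13 in the fixed embryo, with both IgG libraries lower, while both IgG libraries were higher than untreated in the libraries labelled fresh-frozen. For the edited share of Cox6a1, anti-G3BP1 minus IgG was -0.93 percentage points in the fixed embryo, 4.11 in the libraries labelled fresh-frozen and 0.0763 in E12.5 brain. The fixed embryo had 5 edited reads of Cox6a1 over its antibody libraries. At the C-to-T site of Cox6a1 the untreated libraries labelled fresh-frozen carried 13.5% and 12.1%, above the 7.66% and 8.42% with anti-G3BP1. The change at that site thus also occurs without antibody and enzyme, and its part in the difference of 4.11 was not tested. For Ndufv1 the difference was -0.284 percentage points in the fixed embryo, 0.842 in the libraries labelled fresh-frozen and 0.205 in E16.5 brain.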

How the results depend on the processing

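For single members under all alternatives run, 822 values kept their direction and their side of the threshold, 81 lost the call, 6 gained it and 10 reversed. The reversed values were log2 odds ratios that had not been called. In the fixed embryo Sdha gave -0.74 with limma on the empirical logit and -4.31 without the first anti-G3BP1 library, a range of -4.31 to 1.76 when leaving out single libraries. Atp5pb there gave -0.33 from A-to-G sites alone, -1.08 with limma, and -4.47 to 1.07 leaving out single libraries (-0.31 without the second IgG library). Atp5a1 gave -0.19 to 1.15 (-0.11 without the second anti-G3BP1 library). Atp5d in E12.5 brain gave -1.67 from C-to-T sites alone and -1.24 without the first anti-G3BP1 library, up to 4.72 without the second IgG library. The cause of these turns was not tested.

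Members with a higher edited share under anti-G3BP1 and an adjusted p under 0.05 were, in the libraries labelled fresh-frozen (1), 2 with a site minimum of 5 reads, 0 from C-to-T sites, 2 with a gene minimum of 200 reads, 3 with edgeR, 0 with limma, and 0 without any 1 library. In E16.5 brain (2) they numbered 1 from A-to-G sites, 0 from C-to-T sites, 4 with edgeR, 0 with limma, and 0 to 1 leaving out single libraries. In E12.5 brain (0) they numbered 0 to 1, the 1 being Atp5d without the second anti-G3BP1 library. In the fixed embryo every alternative gave 0. The pooled member ratio from A-to-G sites was 1.44 in the fixed embryo, 2.73 in the libraries labelled fresh-frozen, 1.87 in E16.5 brain and 4.497 in E12.5 brain, and from C-to-T sites 1.63 in the libraries labelled fresh-frozen and 1.38 in E16.5 brain.

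For E16.5 over E12.5 brain, 30 higher became 18 and 13 lower became 8 with IgG libraries alone, and lower became 28 when centred on the median change. For E12.5 brain over the fixed embryo, 13 higher became 7 when centred and 5 with IgG libraries alone, while the 52 lower stayed between 36 and 58. The 7 members called between IgG and untreated in the libraries labelled fresh-frozen became 4 with a pseudocount of 0.1, 3 with no filter, 0 with the replicate block and 0 to 7 leaving out single libraries. Libraries with the same replicate number did not deviate together (correlations -0.03 to 0.03), so the numbers do not pair them, and the block moved no other count by more than 1.5 times. With few edited reads per member, small differences in edited share were not detectable.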

Other observations

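Among the respiratory chain transcripts themselves, several levels differed by antibody within a table, which no comparison above covers. The pseudogene Cox6c2 stood at 189 and 214 TPM in the anti-G3BP1 libraries of E12.5 brain and 67.2 and 55.9 TPM in the IgG libraries, and at 94.3 and 77.6 TPM with anti-G3BP1 and 40.8 and 33.8 TPM with IgG in the fixed embryo. Ndufs6b stood at 128 and 104 TPM with anti-G3BP1 and 55.8 and 48.9 TPM with IgG in E12.5 brain. In the same table Cox8a went the other way, with 701 and 730.1 TPM with anti-G3BP1 and 931 and 844 TPM with IgG. These genes were chosen after their values were seen, and the differences were not tested.

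The symbols left out for -ps numbered 12 or 13 in each table, and they summed to 864 to 1183 TPM in the fixed embryo, 326 to 482 TPM in the libraries labelled fresh-frozen, 846 to 1378 TPM in E12.5 brain and 508 to 663 TPM in E16.5 brain.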
